A study of Mus musculus with 18 samples.

Results

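The data describe dopamine neurons of the mouse ventral tegmental area (VTA) after 10 days of MPTP. They were chosen by the sample titles, which give 3 arrays of VTA neurons after 10 days of MPTP and 3 arrays of control VTA neurons, 6 of the 18 arrays of the series. The other arrays hold VTA neurons after 2 days of MPTP and substantia nigra (SN) neurons of control, 2 day and 10 day mice, 3 arrays each. All mice were adult C57Bl/6 animals with the hTH-GFP transgene, in which human tyrosine hydroxylase sequences drive green fluorescent protein, and controls carry it too. Housing was single for 9 weeks, MPTP was given at 4 mg/kg over 10 or 2 days, and tissue was taken 7 days later. Controls received saline for 10 days per the design text, whereas their sample descriptions call them untreated. The 2 day mice thus had fewer days of injection than the controls. Neurons were laser captured. How they were recognised, how many mice each array holds, and whether VTA and SN arrays come from the same mice is not stated in the labels.

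MPTP is a neurotoxin whose metabolite MPP+ enters dopamine neurons through the dopamine transporter and inhibits complex I of the mitochondrial respiratory chain. SN dopamine neurons project mainly to the dorsal striatum and are the more vulnerable in Parkinson disease and after MPTP. VTA dopamine neurons project to the nucleus accumbens and cortex, serve reward and motivation, and are less vulnerable. The comparison of 10 days of MPTP with control therefore asks which transcripts of the less vulnerable neurons differ a week after the last dose.

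Values are log2 signals that are centred on the median of each probe set over the 18 arrays, so 0 is a gene's own middle level and levels cannot be compared between genes. A gene's value is the mean of its probe sets. On this scale, the VTA marker Tacr3, a neurokinin receptor gene, was 1.41 ± 0.36 higher in VTA than in SN neurons after 10 days (SE, n = 3 each), and 1.23 ± 0.36 higher in control VTA than in control SN neurons. The calretinin gene Calb2 exceeded SN by 0.71 ± 0.20 after 10 days and by 0.71 ± 0.20 in controls. Sox6, a transcription factor gene of SN neurons, was at -0.10 ± 0.17 after 10 days and -0.43 ± 0.17 in controls, VTA minus SN, so this marker separated the regions little. Slc17a6, a vesicular glutamate transporter gene found in many VTA neurons, was at -0.038 ± 0.56 after 10 days and 0.93 ± 0.56 in controls, VTA minus SN, and so did not separate the regions after MPTP. VTA control array 1 stood apart from the other control arrays in some markers, though not over all probe sets. The mean of 15 dopamine neuron markers was -0.57 on it, against 0.58 and 0.72 on control arrays 2 and 3. Ttr, the transthyretin gene of choroid plexus, was at 5.14 on control array 1, against -2.65 and -2.62. Over all probe sets, control array 1 had a mean correlation of -0.040 with its group, against -0.030 and -0.039 for arrays 2 and 3. Differences of named genes between VTA 10 day MPTP and control that moved by over 1.5 times without 1 array are also given without it, or as the range with each of the 6 arrays left out. In captured tissue, fewer cells of a type and less RNA per cell cannot be told apart.

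After 10 days of MPTP, 2 of 18193 genes passed the test in VTA neurons (limma, Benjamini-Hochberg adjusted p under 0.05), which is 0.011% of the genes tested. Both rose, and they lie next to each other in gene order on chromosome 17. H2-K1 encodes a classical MHC class I heavy chain, which presents peptides of the cell's own proteins to cytotoxic T cells. AA388235 is a gene known here only by a clone name, and it was named because it was called. Class I transcripts are usually scarce in neurons, although dopamine neurons can be brought to express them by interferon or inflammatory stimuli.

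H2-K1 had centred log2 signals of 1.32, 0.87 and 1.40 on the 3 arrays of VTA neurons after 10 days, against -0.54, -0.0048 and -0.045 on the control arrays. All 3 MPTP arrays were above all 3 control arrays. The group means were 1.20 ± 0.28 after MPTP and -0.20 ± 0.30 in controls (SD, n = 3 each), a 2.63-fold rise (log2 1.39 ± 0.21 SE, limma adjusted p = 0.0454). AA388235 had 1.11, 0.97 and 1.65 after MPTP, against -0.08, -0.21 and -0.10 in controls. Its groups did not overlap either, and it rose 2.59-fold (log2 1.37 ± 0.20, limma adjusted p = 0.0454). Both p-values lie close to the threshold, and adjusted p without 1 of the 6 arrays ran from 0.0434 to 0.260 for H2-K1 and from 0.0434 to 0.254 for AA388235. The p-values rest on the spread within groups over all arrays of the series, whose mice are not described further. When the fit held only the VTA arrays, limma adjusted p was 0.468 for H2-K1 and for AA388235. When it held only the VTA 10 day MPTP and control arrays, limma adjusted p was 0.706 for both genes.

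To show the sequence before these genes, the 250 bases upstream of the start are given for the classical class I genes H2-K1 (chr17:34000348-34000597, minus strand) and H2-D1 (chr17:35262844-35263093, plus strand), the related H2-Q2 (chr17:35342057-35342306, plus strand) and the neighbour AA388235 (chr17:33981242-33981491, plus strand), from RefSeq with coordinates of GRCm38.p6. H2-K1 has 2 windows in that table, of which 1 is shown. Capitals mark matches on either strand to an NF-kB-like motif (GGG and TTCCC with any 2 bases between), an interferon-response-like motif (TTTC and TTC with any 2 bases between), the CCAAT box and the TATA box TATAAA.
H2-K1: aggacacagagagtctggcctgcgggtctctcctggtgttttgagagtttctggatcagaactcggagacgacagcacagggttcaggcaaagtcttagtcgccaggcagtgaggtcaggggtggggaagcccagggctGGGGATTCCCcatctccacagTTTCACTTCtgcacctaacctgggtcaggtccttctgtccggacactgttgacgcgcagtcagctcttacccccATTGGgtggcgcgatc
H2-D1: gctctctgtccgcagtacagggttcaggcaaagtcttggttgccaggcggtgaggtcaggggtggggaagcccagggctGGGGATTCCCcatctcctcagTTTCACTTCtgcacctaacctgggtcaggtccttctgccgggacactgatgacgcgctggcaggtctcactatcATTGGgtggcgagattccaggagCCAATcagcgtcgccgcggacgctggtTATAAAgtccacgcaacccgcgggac
H2-Q2: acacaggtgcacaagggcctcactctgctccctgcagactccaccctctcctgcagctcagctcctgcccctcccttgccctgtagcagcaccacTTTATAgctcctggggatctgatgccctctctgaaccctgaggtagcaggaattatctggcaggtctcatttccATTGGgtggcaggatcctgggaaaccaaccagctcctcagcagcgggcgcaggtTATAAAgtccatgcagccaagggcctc
AA388235: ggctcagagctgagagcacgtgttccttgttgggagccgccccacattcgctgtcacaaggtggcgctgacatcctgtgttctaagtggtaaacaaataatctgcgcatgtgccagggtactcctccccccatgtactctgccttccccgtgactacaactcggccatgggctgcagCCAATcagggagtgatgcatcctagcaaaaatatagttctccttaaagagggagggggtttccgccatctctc
The NF-kB-like motif stood 111 bases before the start in H2-K1 and 171 bases before it in H2-D1, and was found in 1.53% of 32851 promoter windows of this length. The interferon-response-like motif followed it in both, 90 and 150 bases before the start, and was found in 6.31% of windows. The longest run of letters shared by the H2-K1 and H2-D1 windows was 47 bases. In H2-Q2 a CCAAT box and a pair of TATA boxes were found, and in AA388235 a CCAAT box, which 33.8% of all windows hold. Of 13 measured genes of the class I list with a window, 2 had the NF-kB-like and 4 the interferon-response-like motif. These matches describe the letters only.

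H2-D1 and H2-Q2, class I genes further along chromosome 17, were also higher, without passing. H2-D1, the other classical class I heavy chain of this strain, had 0.64, 0.56 and 0.83 after MPTP, against -0.10, 0.22 and -0.04 in controls, a difference of 0.65 ± 0.16 (limma adjusted p = 0.441). H2-Q2, a class Ib gene next to H2-D1 in the order of tested genes, had 1.54, 0.74 and 0.36 after MPTP, against -0.024, -0.030 and 0.069 in controls, a difference of 0.88 ± 0.22 (limma adjusted p = 0.441), or 0.55 without VTA 10 day array 1. In both genes the MPTP arrays lay above the control arrays. Non-overlap of the arrays held for 9.31% of all genes, 4.77% with MPTP higher.

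The rest of the class I pathway gave smaller values. Of 25 listed genes of class I heavy chains, peptide processing and loading, 16 were measured, 11 were higher and 5 lower, with a median difference of 0.11, against -0.0047 over all genes. Of these, 4 were higher at an unadjusted p under 0.05, a limit that 2.89% of all genes met in that direction. They were H2-K1, H2-D1, H2-Q2 and Nlrc5, the transactivator of class I genes, at 0.49 ± 0.22, or 0.28 without VTA 10 day array 2. The VTA arrays of Nlrc5 overlapped, and in SN after 10 days it was at -0.29. B2m, the light chain of every class I molecule, was at 0.13 ± 0.24 and the peptide transporter gene Tap1 at 0.06 ± 0.12. Without VTA control array 1 the median of the list was -0.01, with 8 genes higher and 8 lower, and over the 6 arrays left out in turn the median ran from -0.038 to 0.28. The 31 interferon-stimulated genes outside this list had a median of 0.0028, with 16 higher and 15 lower.

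Single probe sets of the class I genes gave very unequal differences. The 4 probe sets of H2-K1 differed by 3.46 ± 0.46, 1.41 ± 0.23, 0.53 ± 0.31 and 0.17 ± 0.17 between 10 day MPTP and control. On the first of them the MPTP arrays were at 3.62, 2.14 and 3.05, against -1.06, -0.53 and 0.02 on control arrays. Of 9 probe sets of H2-D1, 3 lay between 1.62 and 2.25, 5 between 0.01 and 0.44, and 1 at -0.80. All 4 H2-K1 probe sets, and most of those of H2-D1, carry the maker's suffix for probes that can match several transcripts, so the share of each class I paralogue is uncertain. Both probe sets of AA388235 were higher, by 1.79 ± 0.27 and 0.96 ± 0.35.

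The same probe sets stood out in SN neurons after 10 days. In SN, 10 day MPTP minus control was 3.62 and 1.65 for the first pair of H2-K1 probe sets and 2.51, 2.44 and 2.11 for the first 3 of H2-D1. As genes, H2-K1 differed by 1.38, AA388235 by 1.43 and H2-D1 by 0.71 in SN. The VTA and SN contrasts use different arrays, which may come from the same mice.

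**Figure D1:**
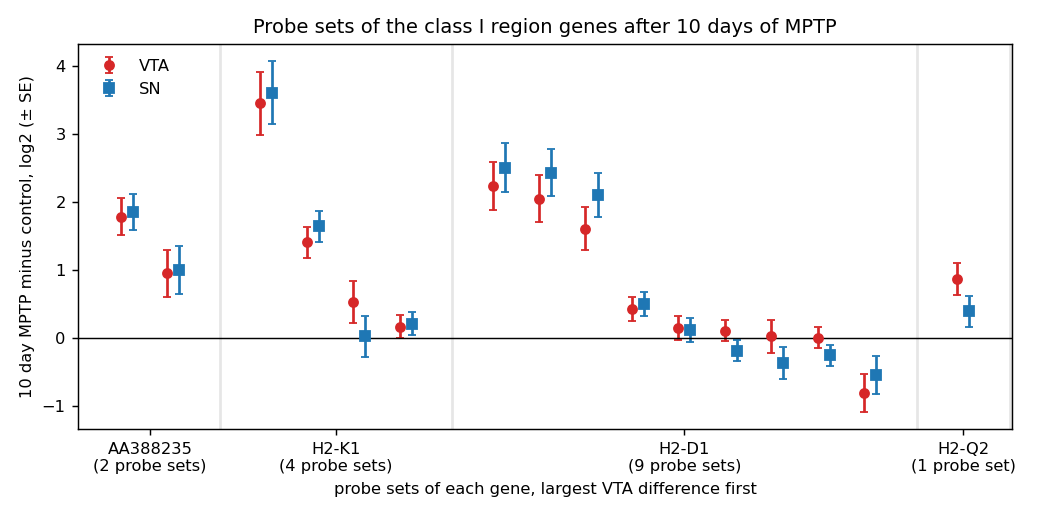
Difference between 10 day MPTP and control (log2, vertical axis) for each probe set of AA388235, H2-K1, H2-D1 and H2-Q2, with red circles for VTA and blue squares for SN and bars for the SE. The H2-K1 probe sets run from 3.46 to 0.17 in VTA, and the 3 highest H2-D1 probe sets are the same in both regions.

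At 2 days, the VTA values of both genes lay near control. H2-K1 had 0.11, -0.41 and -0.12 on the 2 day VTA arrays, which is 0.06 from control, and AA388235 had 0.22, -0.16 and -0.14, which is 0.10 from control. These values share the control arrays with the 10 day comparison. In the direct test of 10 against 2 days, which uses no control array, H2-K1 rose by 1.34 (limma adjusted p = 0.0291) and AA388235 by 1.27 (limma adjusted p = 0.0291).

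Other genes of chromosome 17 stood among those with the smallest p. On this chromosome, which carries the MHC, 28 of 839 genes (3.34%) had an unadjusted p under 0.01, against 209 of 17295 genes (1.21%) on the other chromosomes, and 1.31% of all genes tested (1.18% in SN after 10 days and 2.16% in VTA after 2 days). In SN neurons after 10 days the shares were 3.22% and 1.07%, and in VTA neurons after 2 days 1.91% and 2.17%. Of the 28 genes, 18 were higher and 10 lower. In SN after 10 days, 24 of them (85.7%) had the same sign, against 73.7% of those on other chromosomes. The count was chosen after its values were seen, and genes of a chromosome read on the same arrays are not independent.

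Ring1, which encodes a subunit of Polycomb repressive complexes and follows H2-K1 in gene order, had 0.67, 0.43 and 0.41 after MPTP, against -1.05, -0.15 and -0.02 in controls, a difference of 0.91 ± 0.26 (0.59 without VTA control array 1). Wdr46, a nucleolar protein gene 5 genes before H2-K1, had -0.69, -0.61 and -0.50 after MPTP, against 0.51, -0.13 and 1.26 in controls, a difference of -1.15 ± 0.24. Neither gene's arrays overlapped, and neither passed (limma adjusted p = 0.573 and 0.306). In VTA at 2 days, over the same control arrays, Ring1 was at 0.54 and Wdr46 at -0.34. Among the 40 genes nearest to H2-K1, 20 on each side, AA388235, Ring1 and Wdr46 were the 3 with an unadjusted p under 0.05, a share near the 5.41% of all genes.

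**Figure D2:**
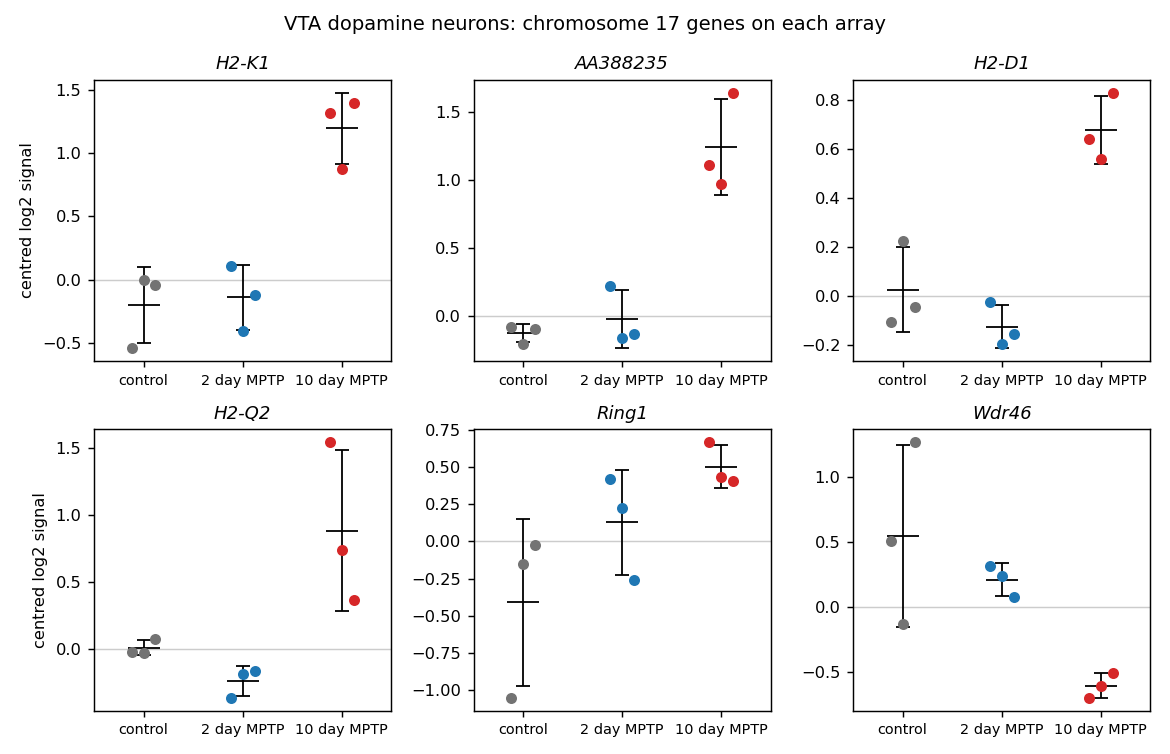
Centred log2 signal (vertical axis) of 6 chromosome 17 genes on each VTA array, with points for the 3 arrays of control, 2 day and 10 day MPTP and a bar with whiskers for mean ± SD. H2-K1 and AA388235 lie between 0.87 and 1.65 on every 10 day array, above all 2 day and control arrays, and Wdr46 lies between -0.69 and -0.50 on the 10 day arrays, below them.

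Other chromosome 17 genes of small p lay 199 to 258 tested genes before H2-K1. E4f1, a transcription factor and ubiquitin ligase that acts on p53, had -1.28, -1.05 and -0.66 after MPTP, against -0.43, -0.05 and 0.27 in controls, a difference of -0.93 ± 0.24, and differed by -1.35 in SN and by 0.44 in VTA at 2 days. Flywch2 was at -0.83 ± 0.20, and at -1.03 in SN. Telo2, which stabilises the kinases of the mTOR and ATM family, was at 0.67 ± 0.18, and at 0.76 in SN, and Spsb3, an adaptor of a ubiquitin ligase, at 1.06 ± 0.24, and at 0.50 in SN. The arrays of these 4 genes did not overlap in VTA, and none passed (limma adjusted p of 0.411 to 0.441). Flywch2, Telo2 and Spsb3 were at -0.22, 0.30 and 0.68 in VTA at 2 days, over the same control arrays.

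**Figure D3:**
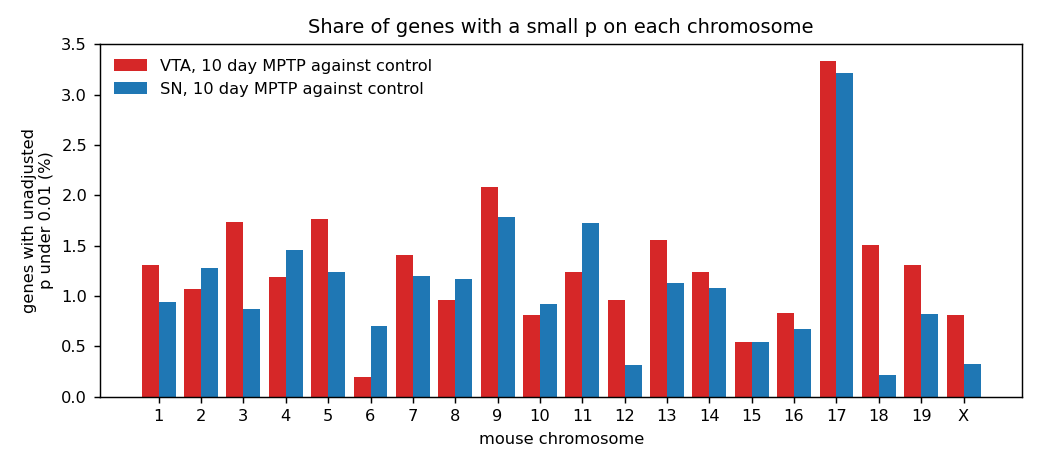
Share of genes with an unadjusted p under 0.01 (percent, vertical axis) on each mouse chromosome, with red bars for VTA and blue bars for SN, each 10 day MPTP against control. Chromosome 17 has 3.34% in VTA and 3.22% in SN, and all other chromosomes have 1.21% and 1.07%.

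Outside chromosome 17, single probe sets of a pair of genes changed. With each probe set tested on its own, 3 of 34945 were called, 1 of H2-K1, 1 of Pnpt1 and 1 of Lrrc27. Neither probe set of AA388235 was called (limma adjusted p = 0.0518 and 0.701). The called probe set of Pnpt1, an exoribonuclease that regulates RNA import into mitochondria, had 1.85, 1.64 and 1.502 after MPTP, against -0.28, -0.27 and 0.45 in controls (1.69 ± 0.19, limma adjusted p = 0.0056). The gene's other probe sets were at -0.01 and -0.50. The called probe set of Lrrc27, a leucine-rich repeat protein gene, had -0.29, -0.76 and -0.50 after MPTP, against 0.98, 0.60 and 1.12 in controls (-1.42 ± 0.21, limma adjusted p = 0.0439), and the other was at -0.03. In SN the called probe sets were at 1.97 for Pnpt1 and -1.07 for Lrrc27. In VTA, 10 against 2 days gave 1.73 for the called Pnpt1 probe set and -0.26 for that of Lrrc27. Both genes were named after their values were seen.

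Among genes that did not pass, those of smallest p had arrays that did not overlap, which choosing them by p on these arrays favours. Non-overlap held for 9.31% of all genes. In all, 985 genes had an unadjusted p under 0.05 (5.41%), 525 higher and 460 lower. The highest was Ucma, an extracellular matrix protein gene of cartilage, with 0.75, 1.71 and 1.86 after MPTP, against -0.71, -0.52 and -0.996 in controls (2.18 ± 0.43, limma adjusted p = 0.292). Hbegf, a ligand of the EGF receptor, had 0.43, 0.27 and 0.33, against -0.33, -0.30 and -0.22 in controls (0.63 ± 0.13). Grip1, a scaffold of AMPA receptors, was at 0.51 ± 0.12, Galk2, a sugar kinase gene, at 0.66 ± 0.14, and the hydrolase gene Abhd14a at 0.91 ± 0.19. Others were Fam216b at 1.85 ± 0.42, the zinc finger gene Zfp879 at 0.82 ± 0.20, Fgl1, a secreted fibrinogen-like protein gene, at 0.73 ± 0.16, and Lysmd1 at 0.57 ± 0.14. At 2 days, over the same control arrays, VTA values were 0.69 for Galk2, 0.72 for Abhd14a, 1.60 for Fam216b and 0.70 for Ucma. Those of Hbegf, Grip1, Zfp879, Fgl1 and Lysmd1 were 0.19, 0.28, 0.37, 0.26 and 0.36.

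The smallest p of the lower genes belonged to Defa3, which encodes an intestinal defensin, with -0.48, -0.62 and -0.55 after MPTP, against 0.90, 1.03 and 0.26 in controls (-1.28 ± 0.22, limma adjusted p = 0.183). Defensin genes form a family of near-identical copies, so its probe set may match several. Heph, a ferroxidase that helps cells to export iron, had -0.75, -0.04 and -0.32, against 0.72, 0.37 and 0.98 in controls (-1.06 ± 0.23). Tnfaip6, a secreted hyaluronan-binding protein induced by inflammation, was at -0.99 ± 0.22, and at -0.78 in SN. Cables1, which links cyclin-dependent kinases to Abl kinases, was at -0.94 ± 0.20, and Jmjd4, a hydroxylase gene, at -1.18 ± 0.25, and at -0.99 in SN. The remaining lower genes were Lrmda at -1.23 ± 0.22, Zfp33b at -0.92 ± 0.17, the transporter gene Abcc6 at -0.78 ± 0.16, Prox1os at -1.18 ± 0.24, Ctla2b at -1.38 ± 0.31 and the centriole gene Sclt1 at -0.86 ± 0.20. At 2 days, over the same control arrays, VTA values were -0.91 for Zfp33b, -0.67 for Abcc6, -0.85 for Prox1os and -0.72 for Lrmda. Defa3 was then at -0.67, Heph at -0.54, Tnfaip6 at -0.50, Ctla2b at -0.48 and Sclt1 at -0.41. Cables1 was at -0.19 and Jmjd4 at 0.02 at 2 days.

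No dopamine gene passed in VTA after 10 days. Th, the rate-limiting enzyme of dopamine synthesis, had -0.32, 0.12 and 1.07 after MPTP, against -0.90, 1.01 and 1.15 in controls, a difference of -0.13 ± 0.52 (limma adjusted p = 0.998). Slc6a3, the dopamine transporter that carries MPP+ into the cell, had -0.35, -0.16 and 0.38, against -0.98, 0.59 and 0.50 in controls (-0.08 ± 0.37). Each control group spans more than its MPTP group, with control array 1 the lowest of the 6 arrays. Slc18a2, the vesicular monoamine transporter, was at -0.32 ± 0.43, the decarboxylase gene Ddc at -0.06 ± 0.31, and the autoreceptor gene Drd2 at -0.90 ± 0.62. With 1 array left out, Slc18a2 ran from -0.83 to -0.018 and Drd2 from -1.44 to -0.43. Of the 15 measured genes of dopamine synthesis, transport and autoreception, 11 were lower and 4 higher, with a median of -0.08.

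These values depended on single arrays. Without VTA control array 1, all 15 genes were lower, with a median of -0.61, with differences of -0.79 for Th, -0.59 for Slc6a3, -0.83 for Slc18a2, -0.51 for Ddc and -1.32 for Drd2. The nicotinic receptor subunit gene Chrna6, typical of dopamine neurons, was at 0.14 with that array and -0.61 without it. Without it, none of these genes was called. Of 15 dopamine neuron markers, a list that overlaps this one, 13 were lower with that array (median -0.17) and 14 without it (median -0.59). Leaving out another array moved the median of the dopamine synthesis, transport and autoreceptor list as high as 0.15. In SN after 10 days that list had a median of -0.39, with 12 of 15 genes lower. In VTA at 2 days, all 15 of its genes were lower over the same control arrays, with a median of -0.66. In the comparison of 10 with 2 days, 13 of the 15 were higher after 10 days, with a median of 0.39.

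Transcription factors of dopamine neurons also fell short of the threshold. Of 15 measured, 11 were lower, with a median of -0.17. Without VTA control array 1, 8 were lower and 7 higher, and without VTA control array 2 the median was -0.019. Otx2, a homeobox gene of VTA neurons that choroid plexus also expresses, had -0.08, 0.58 and -0.38 after MPTP, against 0.20, 0.88 and 1.29 in controls (-0.75 ± 0.32). Nr4a2, which maintains dopamine neuron identity, was at -0.27 ± 0.14, and Pitx3, needed for their development, at 0.27 ± 0.17, or 0.17 without VTA 10 day array 2. Ret, the receptor tyrosine kinase for GDNF, was at -0.51 ± 0.31, with a range of -0.82 to -0.31 when 1 array was left out. Of 25 genes enriched in VTA neurons, 14 were higher and 11 lower, with a median of 0.05. Crym, which binds thyroid hormone, had 0.11, 0.30 and -0.20 after MPTP, against -0.93, -1.30 and -0.22 in controls (0.89 ± 0.31), and Grem1, a secreted BMP antagonist, had 0.63, 0.54 and 0.45, against -0.31, -0.24 and -0.97 in controls (1.05 ± 0.59).

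Genes that respond to glucocorticoid hormones tended to be lower. Of 22 measured, 17 were lower and 5 higher, with a median of -0.21, and 6 were lower at an unadjusted p under 0.05, which 2.53% of all genes were. Sgk1, a kinase that regulates ion channels, had -0.50, -0.25 and -0.69 after MPTP, against 0.96, 0.52 and 0.04 in controls (-0.98 ± 0.35). Cdkn1a, the cell cycle inhibitor p21, had -0.51, -0.25 and -0.18, against 1.26, -0.14 and 0.73 in controls (-0.93 ± 0.30, or -0.61 without VTA control array 1). Zbtb16, a transcriptional repressor, had -0.47, -0.30 and -0.51, against 0.55, 0.34 and -0.08 in controls (-0.69 ± 0.20). In each of these 3 genes the MPTP arrays lay below the control arrays. Cdkn1a is also among the chromosome 17 genes counted above with an unadjusted p under 0.01.

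The others were Plin4, Tsc22d3 and Sult1a1. Plin4, a lipid droplet protein gene that also lies on chromosome 17, was at -0.69 ± 0.27. Tsc22d3, a leucine zipper protein that mediates glucocorticoid action, was at -0.41 ± 0.17 (-0.19 without VTA 10 day array 1). The sulfotransferase gene Sult1a1 was at -0.99 ± 0.43. None of the 22 genes passed over all genes. The MPTP arrays of 6 of them lay below all control arrays, as did those of 4.53% of all genes. The count of 6 genes lower at an unadjusted p under 0.05 was 3 without VTA control array 1, and 3 without VTA 10 day array 1. In SN after 10 days the list had a median of -0.23. At 2 days the VTA median was -0.0033, with Plin4 at 1.07 and Sgk1 at -0.16, over the same control arrays. Sgk1, Tsc22d3 and Sult1a1 were named after their values were seen.

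Of the 20 genes of this list with a promoter window, Sgk1 alone held the full palindromic glucocorticoid response element (AGAACA and TGTTCT with any 3 bases between), in 1 of its 6 windows (chr10:21993640-21993889, GRCm38.p6, plus strand, RefSeq). The element, in capitals, stood 189 bases before the start, and 3 of 32851 windows (0.0091%) held it.
Sgk1: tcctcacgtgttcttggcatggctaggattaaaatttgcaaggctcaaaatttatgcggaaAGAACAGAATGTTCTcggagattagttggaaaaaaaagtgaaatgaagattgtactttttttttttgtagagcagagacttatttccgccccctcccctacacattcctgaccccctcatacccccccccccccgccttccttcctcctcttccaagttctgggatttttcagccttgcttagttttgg

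**Figure D4:**
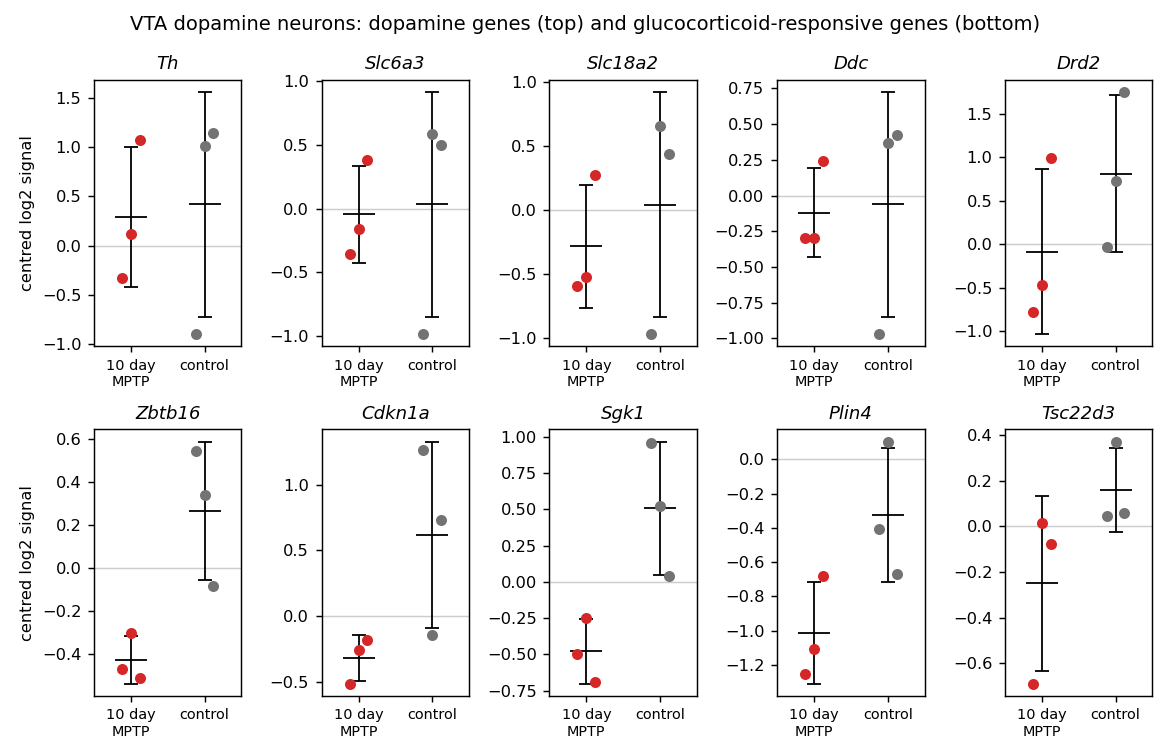
Centred log2 signal (vertical axis) of 5 dopamine genes (top) and 5 glucocorticoid-responsive genes (bottom) on each array, VTA 10 day MPTP at the left of each panel and VTA control at the right, with points for arrays and a bar with whiskers for mean ± SD. For Th, Slc6a3, Slc18a2 and Ddc, control array 1 lies lowest of all 6 arrays, whereas for Zbtb16, Cdkn1a and Sgk1 every MPTP array lies below every control array.

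Antioxidant genes were lower by small amounts. Of 33 measured antioxidant genes and NRF2 targets, 30 were lower, with a median of -0.11 (50.9% of all genes were lower), and 2 were lower at an unadjusted p under 0.05, as were 2.53% of all genes. Hmox1, the inducible heme oxygenase, had -0.06, 0.14 and -0.22 after MPTP, against 0.70, 0.62 and 1.16 in controls (-0.87 ± 0.28), and was at -0.01 in SN. Txnrd1, the cytosolic thioredoxin reductase, had -0.38, -0.28 and 0.01, against 0.06, 0.10 and 0.21 in controls (-0.34 ± 0.14), and was at -0.42 in SN. Over the same control arrays, Hmox1 was at -1.13 and Txnrd1 at 0.03 in VTA at 2 days. Mt3, the neuronal metallothionein, was 1 of the 3 higher genes, at 0.46 ± 0.24, and ran from 0.28 to 0.73 with 1 array left out. With 1 array left out, 24 to 28 of the 33 genes were lower.

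Endoplasmic reticulum chaperones and their regulators were lower too. Of 29 measured genes of the unfolded protein response, 24 were lower, with a median of -0.13. Hspa5, the main chaperone of the endoplasmic reticulum, had -0.28, -0.36 and -0.16 after MPTP, against 0.05, 0.12 and 0.18 in controls (-0.38 ± 0.12, limma adjusted p = 0.673). Xbp1, a transcription factor that drives these chaperones, had -0.58, -0.51 and -0.20, against -0.03, 0.24 and 0.21 in controls (-0.57 ± 0.22). Manf, a secreted protein of this pathway that protects dopamine neurons, was at -0.31 ± 0.15. In SN after 10 days the list had a median of -0.15. Of 28 heat shock chaperones 19 were lower, with a median of -0.06, Hspb1 at -0.64 ± 0.27 and the co-chaperone gene Dnajb1 at -0.36 ± 0.15.

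Genes of the respiratory chain differed little. Of 34 measured genes of complex I, which MPP+ inhibits, 18 were lower and 16 higher, with a median of -0.01 and a range of -0.16 to 0.20. Of 38 genes of complexes II to V, 29 were lower, with a median of -0.08. Atp5pb, a subunit of the ATP synthase stalk, had -0.05, -0.17 and -0.18 after MPTP, against 0.03, 0.03 and 0.18 in controls (-0.21 ± 0.12). Slc25a27, a mitochondrial uncoupling protein gene of neurons on chromosome 17, was at 0.55 ± 0.18, or 0.36 without VTA 10 day array 1. Pink1, a kinase that marks damaged mitochondria and is mutated in familial Parkinson disease, was at -0.22 ± 0.11, and the 15 measured familial Parkinson disease genes had a median of 0.05.

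Among 36 measured genes of the BCL2 family, caspases and death receptors, 19 were higher and 17 lower, with a median of 0.015. Hrk, a neuronal BH3-only activator of cell death, was at 0.58 ± 0.20 (0.37 without VTA control array 2) and Bcl2l11, another, at 0.34 ± 0.12, with 0.05, 0.08 and 0.26 after MPTP, against -0.31, -0.09 and -0.22 in controls. Apaf1, the scaffold of the apoptosome, was at 0.66 ± 0.25, and at 0.33 without VTA control array 1. Bid, which links death receptors to mitochondria, was at -0.43 ± 0.20, and Fas, a death receptor, at -0.58 ± 0.23. Without VTA control array 1, Bid was at -0.18 and Fas at -0.36. None passed. Tnfaip3, an inhibitor of NF-kB signalling, was at 0.52 ± 0.20 and Nppa, the atrial natriuretic peptide gene, at 0.90 ± 0.34, or 0.58 without VTA 10 day array 2.

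Markers of other cells gave the following values beside these groups. Of 15 oligodendrocyte markers 14 were lower, with a median of -0.27, or -0.12 without VTA control array 2. In SN after 10 days 13 of the 15 were lower, with a median of -0.18. In VTA at 2 days all 15 were lower over the same control arrays, with a median of -0.45. The myelin gene Mog had -0.13, -0.32 and 0.01 after MPTP, against 0.24, 0.76 and 0.48 in controls (-0.64 ± 0.23), and Opalin was at 0.58 ± 0.29, with a range of 0.24 to 0.94 when 1 array was left out. Of 8 oligodendrocyte precursor markers, 4 were higher and 4 lower, with a median of 0.014. Among the lower ones were Olig2, a transcription factor of the lineage, at -0.78 ± 0.20 and Gpr17 at -0.91 ± 0.33. The mean of the oligodendrocyte list ran from -0.13 to 0.12 on the MPTP arrays and from 0.09 to 0.51 on the control arrays. Their part in the differences of other genes was not tested.

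Of 17 astrocyte markers 11 were lower, with a median of -0.05, Gjb6, a gap junction gene, at -0.73 ± 0.20 and the transcription factor gene Sox9 at 0.50 ± 0.15. Microglia and macrophage markers, 19 genes, had a median of 0.0028 with 10 higher, and their mean ran from -0.18 to 0.34 on MPTP arrays and from 0.03 to 0.10 on control arrays. Microglia express class I genes, and their part in the H2-K1 difference was not tested. Of 19 endothelial and pericyte genes 10 were lower, with the glucose transporter gene Slc2a1 at -0.49 ± 0.14 and the tight junction gene Cldn5 at 0.64 ± 0.27, or 0.40 without VTA control array 1. The 15 ependyma and choroid plexus markers had a median of 0.21 (-0.14 without VTA control array 2), with Ccdc153, a gene of ciliated ependyma, at 1.96 ± 0.50 and Ttr at 0.91 ± 2.30, or 3.51 without VTA control array 1. The lists not described so far had medians between -0.17 (other neuron markers, 13 genes) and 0.10 (GABA neuron markers, 15 genes). Since values are centred, none of these markers can be called absent.

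**Figure D5:**
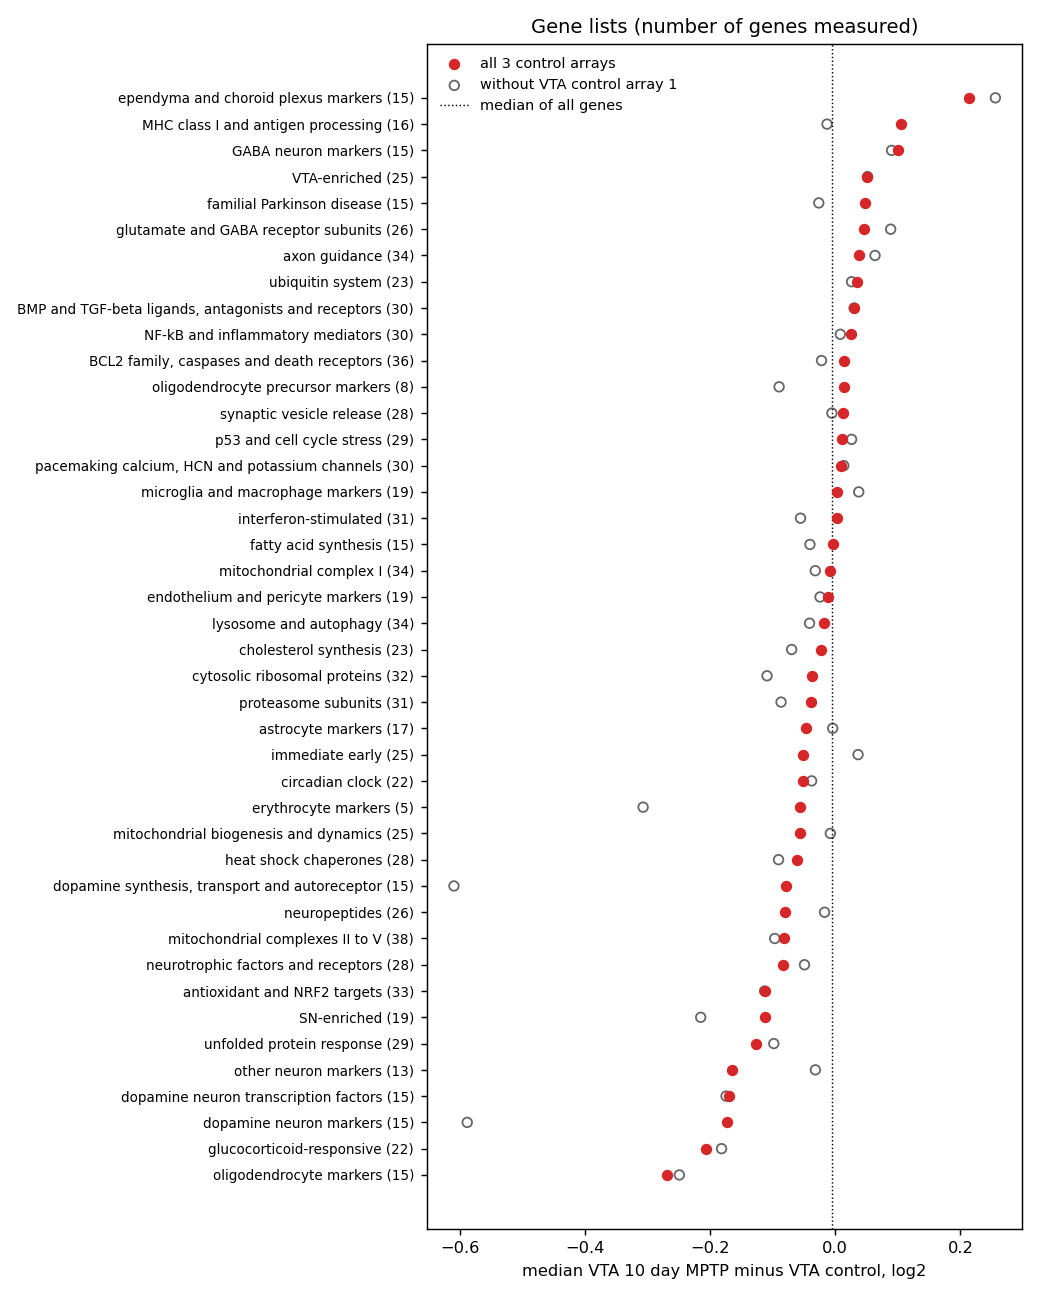
Median VTA 10 day MPTP minus VTA control (log2, horizontal axis) of each gene list, with the number of genes measured in brackets. Red points use all 3 control arrays, open points leave out VTA control array 1, and the dotted line marks the median of all genes. The dopamine synthesis list lies at -0.08 with that array and -0.61 without it, and the glucocorticoid-responsive list at -0.21 and -0.18.

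Between 10 and 2 days of MPTP, 6 genes differed in VTA neurons (limma adjusted p under 0.05), which is 0.033% of genes tested, with 0.022% higher and 0.011% lower. At an unadjusted p under 0.05 the share was 6.34%, with 3.16% higher and 3.18% lower. Besides H2-K1 and AA388235, Wdfy1, which encodes an endosomal adaptor of Toll-like receptors, rose by 1.03 ± 0.13 (limma adjusted p = 0.017) and Fbxw17, an F-box protein gene, by 1.55 ± 0.22 (limma adjusted p = 0.0227). Wdfy1 had 0.04, -0.02 and 0.21 after 10 days, against -1.16, -0.82 and -0.89 after 2 days, and was at -0.10 ± 0.13 from control after 10 days. Single Wdfy1 probe sets gave unequal differences of 10 against 2 days, at 2.01, 1.46, 1.44, 0.23 and 0.02. Fbxw17 had 1.15, 0.76 and 0.43 after 10 days, against -1.10, -0.76 and -0.43 after 2 days, and was at 0.69 from control after 10 days. Fbxw17 belongs to a cluster of related F-box genes, and its 1 probe set may match several of them.

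Plin4 and Per2 fell. Plin4 had -1.25, -1.11 and -0.68 after 10 days, against 0.49, 0.57 and 1.18 after 2 days (-1.76 ± 0.27, limma adjusted p = 0.0291). Per2, a core component of the circadian clock, had -0.60, -0.40 and -0.29 after 10 days, against 0.91, 0.61 and 0.61 after 2 days (-1.14 ± 0.17, limma adjusted p = 0.0291), and was at -0.43 ± 0.17 from control after 10 days (-0.21 without VTA control array 3). In all 6 genes the arrays of 10 and 2 days did not overlap, as for 10.2% of all genes. Next in order were Litaf at 1.04 ± 0.18, and Fmo2 at -0.99 ± 0.17, the inducible heat shock gene Hspa1b at -1.36 ± 0.24 and E4f1 at -1.36 ± 0.24, with limma adjusted p of 0.0596 to 0.0638. From control after 10 days, Litaf was at 0.14, Fmo2 at -0.17, Hspa1b at -0.05 and E4f1 at -0.93. Without 1 of the 6 arrays of 10 and 2 days, 0 to 5 genes were called.

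No gene's 10 day response differed between VTA and SN neurons by the test of the difference itself. The limma test passed 0 of 18193 genes. At an unadjusted p under 0.05 there were 576 (3.17%), of which the VTA response was higher for 1.82% and lower for 1.34% of genes. The genes of smallest p were Defa3, at -1.28 in VTA and 0.35 in SN, and Prox1os, at -1.18 in VTA and 0.52 in SN, lower in VTA, and Grin2c, an NMDA receptor subunit gene, at 0.44 in VTA and -0.47 in SN, and Galk2, at 0.66 in VTA and -0.15 in SN, higher in VTA (limma adjusted p = 1.00 for each). Over all genes the VTA and SN differences had the same sign in 57.0% of 18193 genes, with Pearson's r of 0.265, a description over genes of arrays that may share mice. A p that misses the threshold does not show that both regions respond alike.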

How the data were processed

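The authors deposited log2 values for 45101 probe sets in 18 samples. RNA was isolated with RNeasy Micro, amplified with WT-Ovation Pico and biotin labelled, per the labels' protocols. Per the series' design text, the authors used GeneSpring GX 10.0 for log2 transformation and RMA normalisation. Each probe set has a median of 0 in the files, so the deposited log2 values hold no level and no detection call, and dim probe sets could not be filtered. Background correction is not given in the sources used here. The number of arrays limits the precision.

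Groups came from the sample titles. The platform annotation, which can be old, gave 1 symbol to 34958 probe sets, of which 34945 were used and averaged over 18193 genes. Limma 3.58.1 in R 4.3.3 fitted 6 group means over 18 arrays (two-sided, Benjamini-Hochberg over all genes, threshold 0.05), after a check on simulated data. The replicate numbers did not meet the rule for pairing between VTA 10 day and control arrays (correlations of deviations of 0.218, 0.0016 and 0.027). RefSeq (GRCm38.p6) gave gene order and promoters.

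Named were called genes, the 12 genes of smallest p each way, 2 members of each list each way and a few dopamine genes, whereas H2-Q2, Nlrc5, B2m, Tap1, Ring1, Flywch2, Telo2, Pnpt1, Lrrc27, Sgk1, Tsc22d3, Sult1a1, Apaf1 and Ttr were chosen after their values were seen. The 42 lists held 1036 genes, 937 of them measured. Members and lists were chosen with earlier results of these data known. Alternatives covered probe sets, samples in the fit, centring, normalisation, array weights, blocks and omitted arrays.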

Additional observations from a re-analysis of the deposited data

How the results depend on the processing

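The count of 2 genes in VTA neurons after 10 days was 0 in a fit of only the 9 VTA arrays, after a repeated quantile normalisation, with array weights, with a random block of treatment and replicate number, without the 2 arrays of widest spread (SN control array 1 and VTA 2 day array 1) and when the fit held the 2 groups alone. It was 0 with the replicate number as a block (smallest adjusted p = 0.0895), although the numbers do not pair these arrays. With 1 array left out it ran from 0 to 3, and it was 0 without VTA 10 day array 1 or 3 or VTA control array 1 or 3. Without VTA control array 2 the 3 genes called were Gm10037, Prox1os and Wdr46. The probe set of largest SD gave 4 genes, which were H2-K1, AA388235, Pnpt1 and Lrrc27. Over these alternatives the difference of H2-K1 ran from 1.22 to 3.46 and the adjusted p from 0.0127 to 0.706.

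The count of 6 genes for 10 against 2 days was 10 with the probe set of largest SD, 16 over single probe sets, 9 with the replicate block, 0 when the fit held the VTA arrays or the 2 groups alone, and 0 to 5 with 1 array left out. The count of 0 for the difference between the VTA and SN responses was 1 without the 2 arrays of widest spread, which was Dctpp1. The block also gave 0 there. Every VTA 10 day array correlated best with the SN 10 day array of its own number (r of 0.324, 0.281 and 0.399), and so did the control arrays of VTA and SN (r of 0.064, 0.200 and 0.225), as a hint from the data.

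With 1 array left out, differences turned in sign for B2m (-0.069 to 0.36), Tap1 (-0.046 to 0.13), Th (-0.79 to 0.23), Slc6a3 (-0.59 to 0.20), Ddc (-0.51 to 0.18), Chrna6 (-0.61 to 0.58), Ttr (-0.39 to 3.51) and Wdfy1 (-0.16 to 0.0013). With the probe set of largest SD, Ddc was at 0.16 and Wdfy1 at 0.043. On chromosome 17, the count of 28 genes was 14 with the VTA arrays alone (1.67%, against 0.792% on the others), 15 with the 2 groups alone (1.79%, against 0.815%) and 18 without VTA 10 day array 2 (2.15%, against 0.879%). The cause of these changes was not tested.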
